A study of Mus musculus with 10 samples.

Results

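The 10 genes described here mark how a fat pad burns fatty acids and handles glycerol, and were followed across 10 libraries of mouse mammary fat. They were chosen by name as entries of mitochondrial fatty acid oxidation (Cpt1a, Cpt1b, Cpt2, Acadvl, Acadm and Hadha), the pyruvate dehydrogenase kinase gene Pdk4, and glycerol handling (Pck1, Gpd1 and Aqp7). All 10 symbols were found among the 30319 genes of the deposited expression matrix, and all 10 passed the filter on low values. Total RNA came from whole inguinal subcutaneous mammary pads of female FVB mice, so each library mixes the RNA of adipocytes with that of every other cell in the pad. The groups were Null_HFD (FAP-/- mice on a diet with 60% of calories from fat, n = 3), WT_HFD (wild-type mice on the same diet, n = 2), Null_LFD (FAP-/- mice on a matched diet with 10% of calories from fat, n = 3) and WT_LFD (wild-type mice on that low-fat diet, n = 2). All mice ate their diet between 12 and 30 weeks of age. FAP-/- mice lack fibroblast activation protein, a surface protease of activated fibroblasts, and the labels do not say which part of Fap was disrupted. The series is about FAP in fat cell formation and in mTOR signalling.

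A long-chain fatty acid enters the mitochondrion as a carnitine ester. Carnitine palmitoyltransferase 1 of the outer membrane makes that ester, as the widely expressed isoform Cpt1a or the isoform Cpt1b of muscle and brown fat, and Cpt2 of the inner membrane returns it to coenzyme A. Acyl-CoA dehydrogenases such as Acadvl and Acadm and the trifunctional protein, of which Hadha encodes the alpha subunit, then shorten the chain in cycles. White fat burns little fat but recycles it: phosphoenolpyruvate carboxykinase (Pck1) and glycerol-3-phosphate dehydrogenase (Gpd1) make the glycerol backbone for new triglyceride, while glycerol freed by lipolysis leaves through the channel Aqp7.

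Libraries differed in what the pads held. Adipocyte identity was plain in every library, as the summed level of 15 mature adipocyte markers ran between 19174 TPM (a length-corrected share of each library's transcripts) in Null_HFD 3 and 54909 TPM in WT_LFD 2. The summed level of 14 lymph node markers was 3055 TPM in Null_HFD 3 and 1126 TPM in WT_HFD 2, against 17.4 to 43.6 TPM in the other 8 libraries, and these 2 high-fat libraries had the lowest skeletal muscle sums (162 and 369 TPM, against 2712 to 12478 TPM). Sums of 10 thermogenic fat markers, of which the testis gene Gk2 was listed at 0 throughout, ran between 110 TPM (Null_HFD 3) and 1787 TPM (WT_LFD 2). Fap itself was at 18.3 to 38.4 TPM in the 6 null libraries and at 37.7 to 68.8 TPM in the 4 wild-type libraries, and the library labelled Null_HFD 2 lay just above the library labelled WT_HFD 2. Read numbers cannot be recovered from TPM, so the depth is unknown.

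Their promoters were searched for 3 motifs. RefSeq promoter windows of the build GRCm38.p6 (250 bases before to 50 after the start) were at hand for 8 of the 10 genes. These 8 genes had 9 windows, so the counts of genes below are not directly comparable with shares of windows. The letters AGGTCA, the half-site bound by nuclear receptors such as PPARs, were searched on both strands and stood in windows of 4 of these 8 genes (Acadm, Aqp7, Acadvl and Cpt1a) and in 16.3% of all 32851 windows. The direct repeat of that half-site with 1 base between the copies, which counts under the half-site too, was in none of the 8 and in 0.0396% of all windows. The letters TTACGTCA, those of the cAMP response element known from the rat Pck1 promoter, were in the Pck1 window and in 0.499% of all windows. A match describes letters only and is not evidence of binding. The 250 bases before 3 starts are shown because Cpt1a stood apart from the other genes, Pck1 was the most abundant, and Hadha shares its window with its partner subunit gene Hadhb. Capitals mark AGGTCA read on the opposite strand in Cpt1a (chr19:3323051-3323300, plus strand, bases -94 to -89 from the start), TTACGTCA in Pck1 (chr2:173152823-173153072, plus strand, bases -93 to -86), and in Hadha (chr5:30154981-30155230, minus strand) the 228 bases also covered by the Hadhb window. In GENCODE M21 the genes span chr19:3322334-3385733 (Cpt1a), chr2:173153048-173159273 (Pck1) and chr5:30118304-30155162 (Hadha), so the Cpt1a window lies wholly and the others partly inside the annotated gene. The RefSeq starts of Hadha and Hadhb lie 273 bases apart and point away from each other.
Cpt1a: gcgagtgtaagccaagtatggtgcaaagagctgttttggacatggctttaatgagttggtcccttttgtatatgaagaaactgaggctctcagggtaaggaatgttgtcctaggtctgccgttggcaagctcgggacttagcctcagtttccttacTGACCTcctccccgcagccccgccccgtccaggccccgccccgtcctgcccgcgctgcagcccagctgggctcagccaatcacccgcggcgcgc
Pck1: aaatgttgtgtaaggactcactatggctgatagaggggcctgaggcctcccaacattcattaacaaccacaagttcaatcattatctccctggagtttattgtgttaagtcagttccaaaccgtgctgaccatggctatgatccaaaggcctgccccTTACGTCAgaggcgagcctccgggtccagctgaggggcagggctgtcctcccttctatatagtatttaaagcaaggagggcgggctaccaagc
Hadha: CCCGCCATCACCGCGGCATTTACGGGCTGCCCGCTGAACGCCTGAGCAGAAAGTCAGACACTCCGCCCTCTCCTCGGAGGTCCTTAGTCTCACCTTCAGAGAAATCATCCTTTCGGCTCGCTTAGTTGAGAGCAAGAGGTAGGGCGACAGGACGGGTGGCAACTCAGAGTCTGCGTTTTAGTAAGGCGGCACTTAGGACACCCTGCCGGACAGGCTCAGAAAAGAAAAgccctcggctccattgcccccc

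None of the 10 genes passed the test across all genes in any of 7 comparisons. With limma on log2(TPM + 1) and Benjamini-Hochberg adjustment over 16932 genes, 0% of all genes were called between null and wild type over both diets, and 0% between high-fat and low-fat over both genotypes. The called share was 0% for genotype on the low-fat diet, 0.0118% for genotype on the high-fat diet, 0% for diet in wild type, 0.00591% for diet in null and 0% for the interaction. Cpt1a had an unadjusted p under 0.05 in 4 of the 7 comparisons and Hadha in 1, and none of the other 8 genes did in any. Over all genes tested the share with such a p was 4.19% for genotype over both diets, 4.43% for genotype on the low-fat diet, 9.69% for diet over both genotypes and 5.61% for diet in wild type, the 4 comparisons concerned. Between null and wild type 2 of the 10 genes had a positive and 8 a negative difference, with a median of -0.12 against a median of 0.08 over all genes tested. That tally depended on single libraries, as it was 7 positive and 3 negative without Null_HFD 3 (median 0.10) and 6 positive and 4 negative without WT_HFD 1 (median 0.06). Between the diets 1 was positive and 9 were negative, with a median of -0.33 against 0.11 over all genes tested. Without the 2 lymph node-rich libraries the diet differences were positive for 8 of the 10 genes, with a median of 0.09 against 0.06 over all genes tested. In whole-pad RNA, fewer cells of a type and less RNA per cell cannot be told apart.

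**Figure D1:**
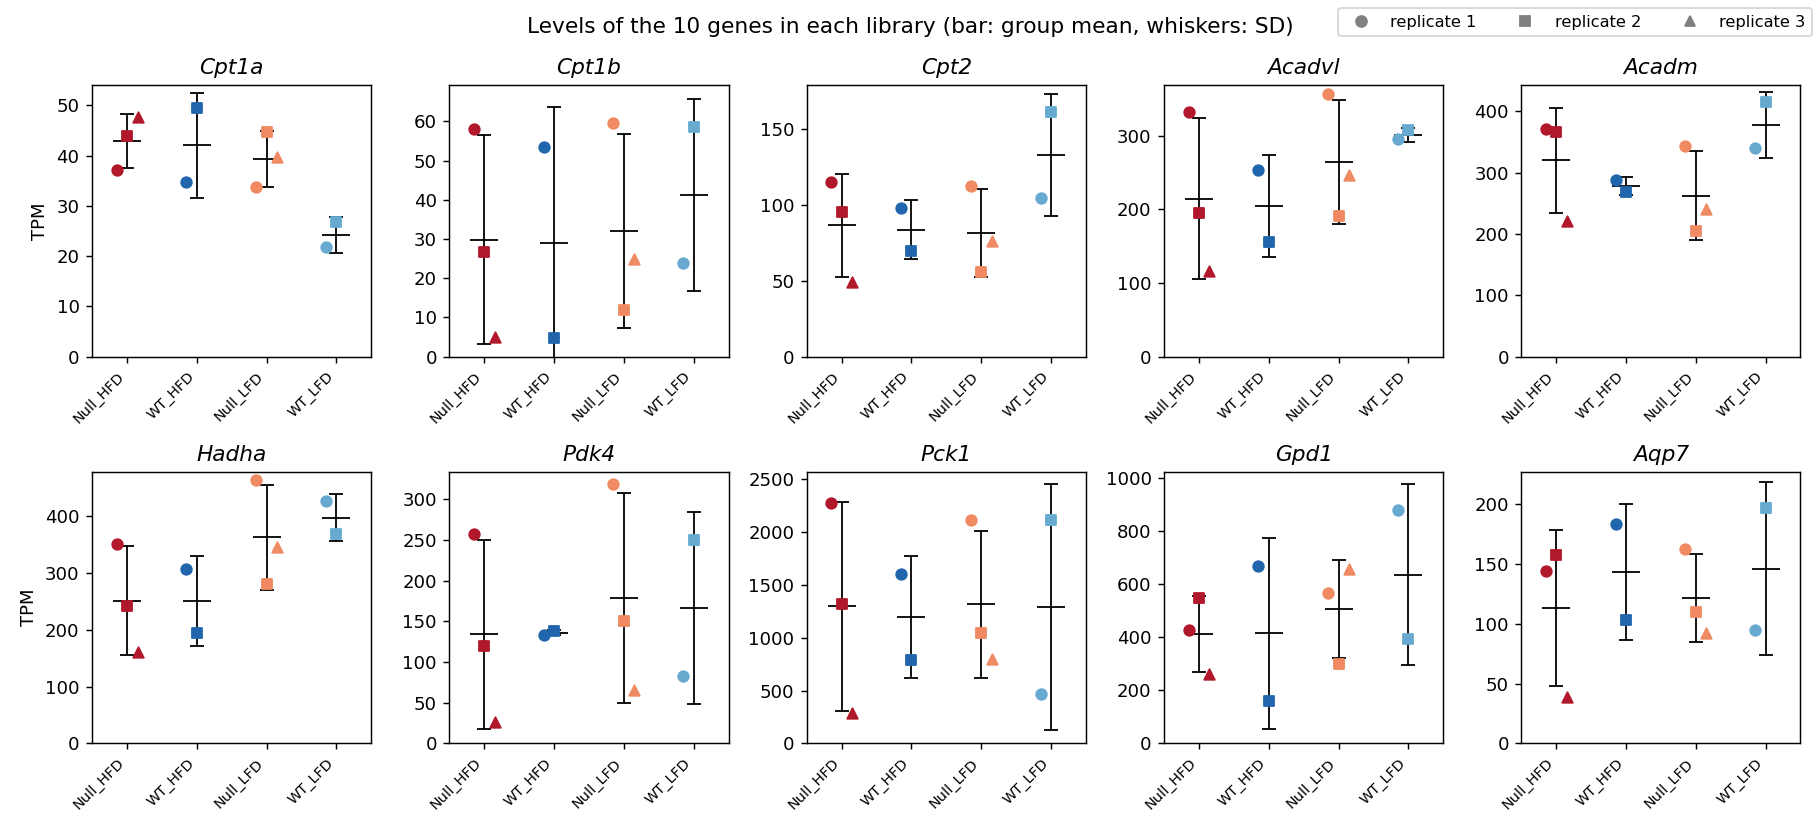
Level (TPM, linear axis starting at 0) of each of the 10 genes in every library, with groups on the x axis, one marker shape per replicate number, bars for the group mean and whiskers for the SD (cut at 0). Cpt1a is the gene whose 2 WT_LFD libraries (21.7 and 26.7 TPM) lie below all other libraries, while the other genes spread widely within groups.

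Cpt1a, which encodes the rate-controlling entry enzyme of mitochondrial fatty acid oxidation in most tissues, was lowest in wild-type mice on the low-fat diet. It measured 37.1, 43.9 and 47.7 TPM in Null_HFD, 34.7 and 49.4 TPM in WT_HFD, 33.7, 44.7 and 39.7 TPM in Null_LFD, and 21.7 and 26.7 TPM in WT_LFD libraries. The 2 WT_LFD libraries lay below all 8 others, as in 7.16% of genes tested and in no other of the 10 genes, and the other 3 groups overlapped. The means were 42.9 ± 5.35 TPM (SD, n = 3) in Null_HFD, 42.1 ± 10.4 TPM (n = 2) in WT_HFD, 39.4 ± 5.52 TPM (n = 3) in Null_LFD and 24.2 ± 3.53 TPM (n = 2) in WT_LFD. Only the gap between Null_LFD and WT_LFD was larger than the larger SD of the neighbouring groups. On the low-fat diet Cpt1a was 1.60-fold as high in null as in wild-type pads (log2 difference 0.68, SE 0.22, limma adjusted p = 0.949). In wild type it was 1.69-fold as high on the high-fat as on the low-fat diet (log2 difference 0.76, SE 0.25, limma adjusted p = 0.761), or 0.51 without WT_HFD 2. Both comparisons rest on the same 2 WT_LFD libraries.

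The other Cpt1a comparisons were smaller. On the high-fat diet the null minus wild-type difference was 0.04 (SE 0.22), with a 95% interval of -0.46 to 0.55. Within null mice the high-fat minus low-fat difference was 0.12 (SE 0.20, interval -0.33 to 0.58). The interaction, which tests whether the genotype difference differed between the diets, was -0.63 (SE 0.32, limma adjusted p = 1.00), or -0.38 without WT_HFD 2. Over both diets the null minus wild-type difference was 0.36 (SE 0.16, adjusted p = 0.980), and over both genotypes the high-fat minus low-fat difference was 0.44 (SE 0.16, adjusted p = 0.513), or 0.28 without the 2 lymph node-rich libraries.

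Lack of overlap between pairs of groups was more common. In 19.1% of genes tested both WT_LFD libraries lay below all 3 Null_LFD libraries, and Cpt1a was the only one of the 10 genes among them. Both WT_HFD libraries lay above both WT_LFD libraries in 33.7% of genes, again with Cpt1a alone among the 10. The median gene differed by 0.15 and 0.20 on the log2 scale in these 2 comparisons, and after median-of-ratios scaling, which brings both medians to 0.01 and 0.02, the Cpt1a differences were 0.53 and 0.55. The summed level of 10 macrophage markers, each of which reached 1 TPM, was also lowest in the WT_LFD libraries. It was 745 and 682 TPM there, against 819 to 1994 TPM in the other 8. Sums of 11 luminal epithelium markers were 1289 and 650 TPM in WT_LFD and 1710 to 3206 TPM in Null_LFD libraries. They were 1740 and 1334 TPM in WT_HFD and 343 to 1085 TPM in Null_HFD libraries. Muscle sums were 3909 and 2712 TPM in WT_LFD and 4479 to 12478 TPM in Null_LFD libraries. In WT_HFD libraries they were 3972 and 369 TPM, and in Null_HFD 162 to 6651 TPM. The part of these cell types in the Cpt1a values was not tested.

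Cpt1b, the isoform of muscle and brown fat, varied 12.7-fold between libraries with no order by group. It measured 57.9, 26.6 and 5.01 TPM in Null_HFD, 53.5 and 4.67 TPM in WT_HFD, 59.5, 11.9 and 24.8 TPM in Null_LFD, and 23.9 and 58.5 TPM in WT_LFD libraries. Every group held a library at 53.5 TPM or more, and all 4 groups overlapped. The null minus wild-type difference was -0.11 (SE 0.81, 95% interval -1.94 to 1.72) and the high-fat minus low-fat difference was -0.74 (SE 0.81, interval -2.57 to 1.09). The diet value was 0.53 without the lymph node-rich libraries, which had the lowest Cpt1b. Its residual SD within groups was 1.54 on the log2 scale, larger than that of 97.7% of genes tested, against 0.23 for Cpt1a and a median of 0.38. Cpt1b overlaps the annotated gene Gm44502 on the same strand of chromosome 15, so its level is uncertain where reads could be split between them.

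The balance of the isoforms changed sides between libraries. TPM is a level per transcript length, so both genes can be set side by side. Cpt1b was above Cpt1a in 5 of 10 libraries, namely Null_HFD 1, WT_HFD 1, Null_LFD 1, WT_LFD 1 and WT_LFD 2, with ratios of Cpt1b to Cpt1a between 1.10 and 2.19. The ratio was 0.606 in Null_HFD 2, 0.265 in Null_LFD 2 and 0.625 in Null_LFD 3, and 0.105 and 0.0945 in the lymph node-rich Null_HFD 3 and WT_HFD 2. The thermogenic marker sum was 1410, 420 and 110 TPM in Null_HFD, 886 and 231 TPM in WT_HFD, 1143, 439 and 583 TPM in Null_LFD, and 747 and 1787 TPM in WT_LFD libraries, so the 5 libraries with more Cpt1b than Cpt1a were also those with the 5 highest sums. Ucp1, the uncoupling protein of brown fat, was at 567, 49.2 and 1.35 TPM in Null_HFD, 266 and 3.69 TPM in WT_HFD, 219, 56.1 and 125 TPM in Null_LFD, and 153 and 860 TPM in WT_LFD libraries. The muscle sums were 3803, 6651 and 162 TPM in Null_HFD and 3972 and 369 TPM in WT_HFD libraries. In Null_LFD they were 12478, 9800 and 4479 TPM, and in WT_LFD 3909 and 2712 TPM. Their order over all libraries differed from that of the thermogenic sums. They were highest in Null_LFD 1 (Cpt1b at 59.5 TPM) and Null_LFD 2 (Cpt1b at 11.9 TPM). They were lowest in Null_HFD 3 and WT_HFD 2, where Cpt1b and the thermogenic sums were lowest too. The part of either tissue in Cpt1b was not tested.

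**Figure D2:**
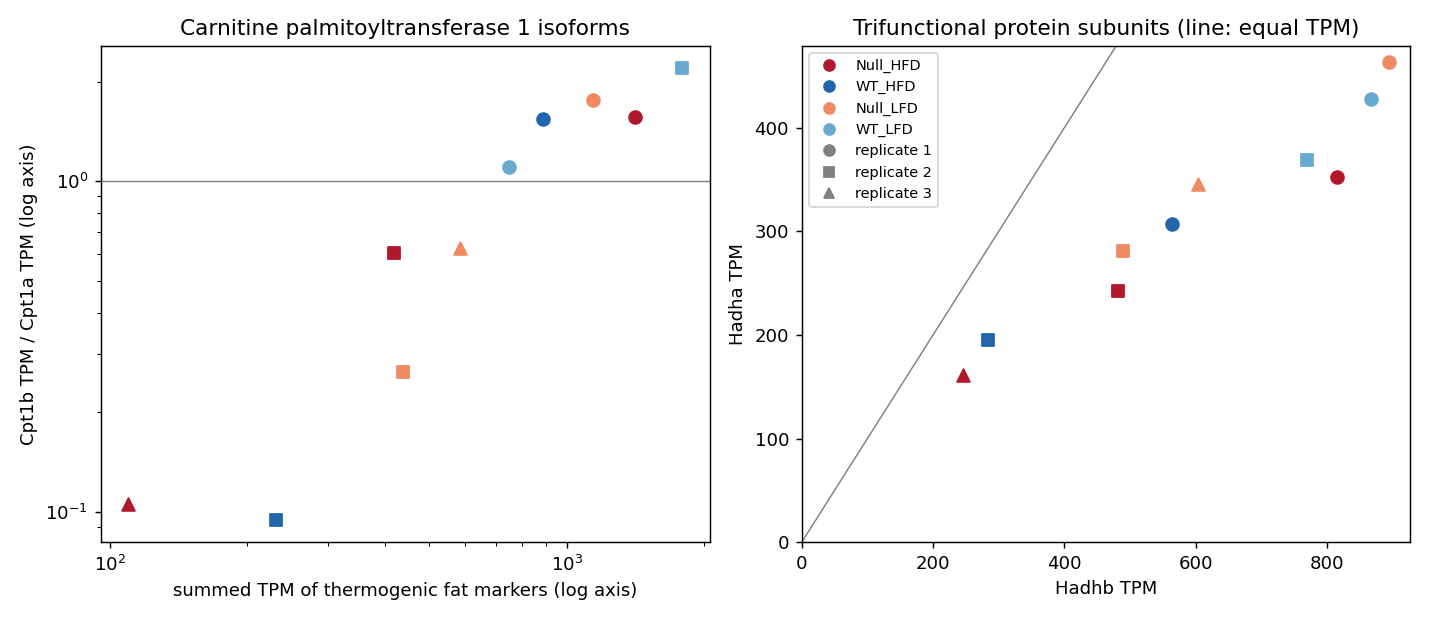
Left, ratio of Cpt1b TPM to Cpt1a TPM against the summed TPM of thermogenic fat markers, both on log axes, with 1 point per library. The 5 libraries above a ratio of 1 have sums of 747 to 1787 TPM and the 5 below have 110 to 583 TPM. Right, Hadha TPM against Hadhb TPM on linear axes, where all 10 libraries lie below the line of equal TPM.

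Cpt2 and the enzymes of the oxidation cycle were abundant, at 49.0 TPM or more in every library. Cpt2, the inner-membrane carnitine palmitoyltransferase, measured 115, 95.5 and 49.0 TPM in Null_HFD, 97.7 and 69.8 TPM in WT_HFD, 113, 55.9 and 76.0 TPM in Null_LFD, and 104 and 161 TPM in WT_LFD libraries. Acadvl, which opens the cycle on very long chains, measured 332, 195 and 116 TPM in Null_HFD, 254 and 155 TPM in WT_HFD, 356, 191 and 247 TPM in Null_LFD, and 295 and 308 TPM in WT_LFD libraries. In both, Null_HFD 3 was lowest, and null and wild-type libraries overlapped on the low-fat diet.

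Acadm, the dehydrogenase of medium chains, had the narrowest range of the 10 genes at 2.03-fold. It measured 371, 367 and 221 TPM in Null_HFD, 289 and 269 TPM in WT_HFD, 343, 204 and 241 TPM in Null_LFD, and 340 and 416 TPM in WT_LFD libraries. Hadha measured 352, 243 and 161 TPM in Null_HFD, 307 and 195 TPM in WT_HFD, 464, 281 and 346 TPM in Null_LFD, and 428 and 369 TPM in WT_LFD libraries. Of the 10 genes these and the preceding pair, Cpt2, Acadvl, Acadm and Hadha, had both WT_HFD libraries below both WT_LFD libraries, as did 11.5% of all genes tested. None of the 10 genes separated the diets within null mice (6.6% of genes higher and 4.49% lower on the high-fat diet), the genotypes on the high-fat diet (7.73% higher and 7.78% lower in null), the genotypes over both diets (0.543% and 0.378%) or the diets over both genotypes (1.59% and 0.413%).

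Hadha had the largest diet difference relative to its error among the genes that were lower on the high-fat diet. Over both genotypes it was 0.645-fold as high on the high-fat as on the low-fat diet (log2 difference -0.63, SE 0.25, limma adjusted p = 0.513), with differences of -0.70 (SE 0.39) in wild type and -0.57 (SE 0.32) in null. Without the lymph node-rich libraries the value was -0.33. The diet differences of Acadvl (-0.49, SE 0.30), Cpt2 (-0.29, SE 0.29) and Acadm (-0.08, SE 0.21) had adjusted p values of 0.560, 0.710 and 0.908. Without those 2 libraries they were -0.13, 0.01 and 0.07. Between null and wild type over both diets the differences were -0.37 (SE 0.29) for Cpt2, -0.19 (SE 0.21) for Acadm, -0.13 (SE 0.30) for Acadvl and -0.09 (SE 0.25) for Hadha, all with adjusted p values of 0.980 or above. The 95% interval of the Hadha genotype difference, -0.67 to 0.48, leaves room for changes of either sign. Acadvl overlaps Dvl2 and Hadha overlaps Garem2, both on the opposite strand, and strand use in counting is not given in the sources used here.

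Hadha followed its partner Hadhb, the beta subunit gene of the trifunctional protein, through all 10 libraries. Hadhb measured 815, 481 and 246 TPM in Null_HFD, 564 and 284 TPM in WT_HFD, 894, 489 and 604 TPM in Null_LFD, and 867 and 769 TPM in WT_LFD libraries. Hadha stayed below Hadhb throughout, with ratios between 0.432 (Null_HFD 1) and 0.685 (WT_HFD 2), while Hadha alone varied 2.88-fold. The high-fat minus low-fat difference of Hadhb was -0.75 (SE 0.35, adjusted p = 0.527), or -0.28 without the lymph node-rich libraries. These are the genes whose promoter windows share the 228 bases shown above. The part of those shared bases in the levels of either gene was not tested.

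**Figure D3:**
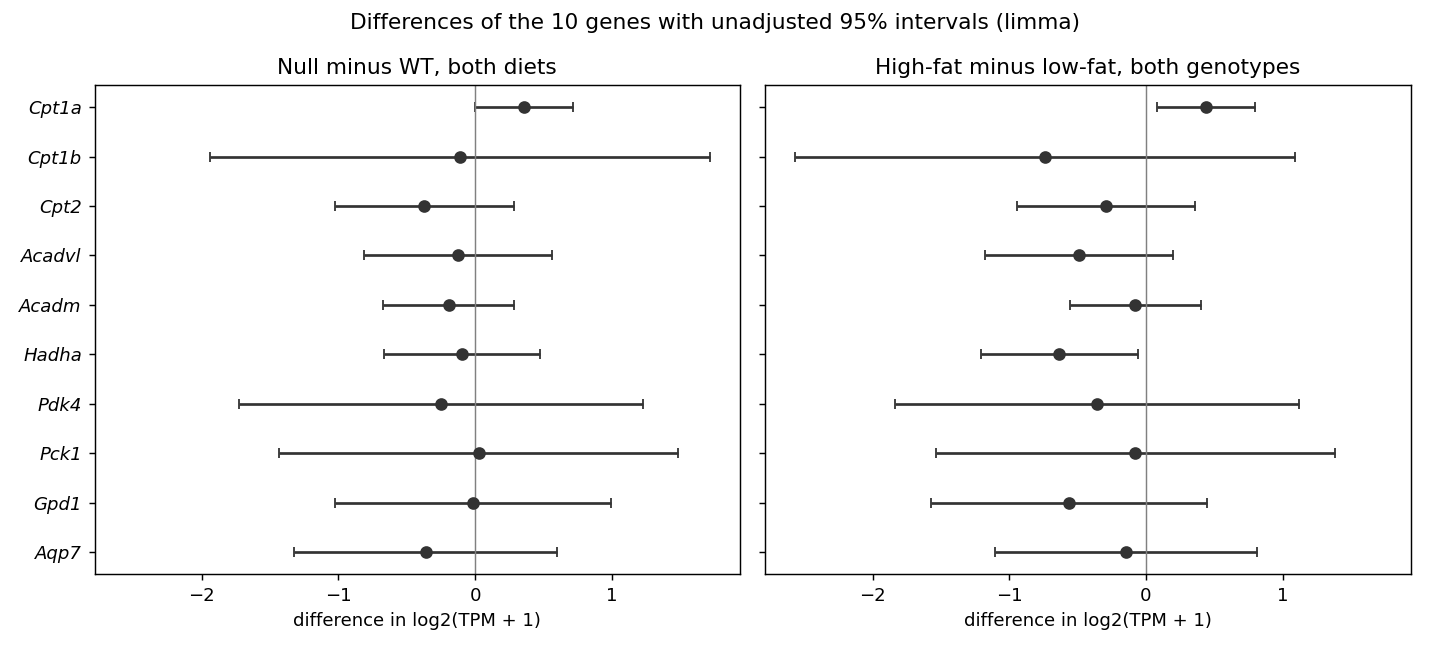
Differences in log2(TPM + 1) of the 10 genes, null minus wild type over both diets (left) and high-fat minus low-fat over both genotypes (right), with unadjusted 95% intervals from limma. Intervals of Cpt1b, Pdk4, Pck1 and Gpd1 span more than 2 log2 units, and that of Cpt1a is the narrowest.

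Pdk4 and Pck1, genes of fasting and lipolytic states, varied over a wide range with no separation by group. Pdk4, a kinase that switches off pyruvate dehydrogenase and so spares glucose, measured 257, 119 and 26.5 TPM in Null_HFD, 134 and 138 TPM in WT_HFD, 319, 150 and 65.2 TPM in Null_LFD, and 82.4 and 249 TPM in WT_LFD libraries. Pck1, the enzyme that feeds glyceroneogenesis, measured 2275, 1320 and 290 TPM in Null_HFD, 1601 and 789 TPM in WT_HFD, 2109, 1044 and 798 TPM in Null_LFD, and 464 and 2112 TPM in WT_LFD libraries. For both genes the 3 highest libraries were Null_HFD 1, Null_LFD 1 and WT_LFD 2, which belong to 3 different groups, and the lowest was Null_HFD 3.

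The groups had nearly equal Pck1 means with large errors, at 1295 ± 993 TPM (SD, n = 3) in Null_HFD, 1195 ± 575 TPM (n = 2) in WT_HFD, 1317 ± 697 TPM (n = 3) in Null_LFD and 1288 ± 1165 TPM (n = 2) in WT_LFD. The null minus wild-type difference of Pck1 was 0.03 (SE 0.65, 95% interval -1.43 to 1.49), and it was -0.05 after median-of-ratios scaling. Its high-fat minus low-fat difference was -0.08 (SE 0.65), against 0.61 without the lymph node-rich libraries. For Pdk4 the differences were -0.25 (SE 0.66) by genotype and -0.36 (SE 0.66) by diet, against 0.21 and 0.08 without those 2 libraries. Intervals of this width do not show that the groups were alike. Pck1 lies on chromosome 2 as Fap does, 110578973 bases away.

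Pck1 was far above its mitochondrial counterpart Pck2 in every library, by 22.6-fold to 232-fold. Pdk4 was above Pdk2 in all 10 libraries (ratios of 1.86 to 6.80) and above Pdk1 in 8, the exceptions being Null_HFD 3 and WT_LFD 1, where Pdk1 was at 87.8 and 93.9 TPM.

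Gpd1, which turns dihydroxyacetone phosphate into glycerol 3-phosphate, followed another order of libraries. It measured 428, 547 and 259 TPM in Null_HFD, 667 and 160 TPM in WT_HFD, 564, 299 and 654 TPM in Null_LFD, and 876 and 394 TPM in WT_LFD libraries. WT_LFD 1, which was ninth of 10 for Pck1, was the highest for Gpd1. The differences were -0.01 (SE 0.45) between null and wild type and -0.57 (SE 0.45, adjusted p = 0.640) between the diets, the diet value being 0.10 without the lymph node-rich libraries. An antisense gene, Gm16537, overlaps Gpd1.

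Aqp7, the glycerol channel of the fat cell, measured 144, 158 and 38.4 TPM in Null_HFD, 183 and 103 TPM in WT_HFD, 163, 110 and 92.1 TPM in Null_LFD, and 94.9 and 197 TPM in WT_LFD libraries. All 4 groups overlapped, and Null_HFD 3 was the lowest. The null minus wild-type difference was -0.36 (SE 0.43, 95% interval -1.32 to 0.60) and the high-fat minus low-fat difference was -0.15 (SE 0.43), or 0.38 without the lymph node-rich libraries.

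**Figure D4:**
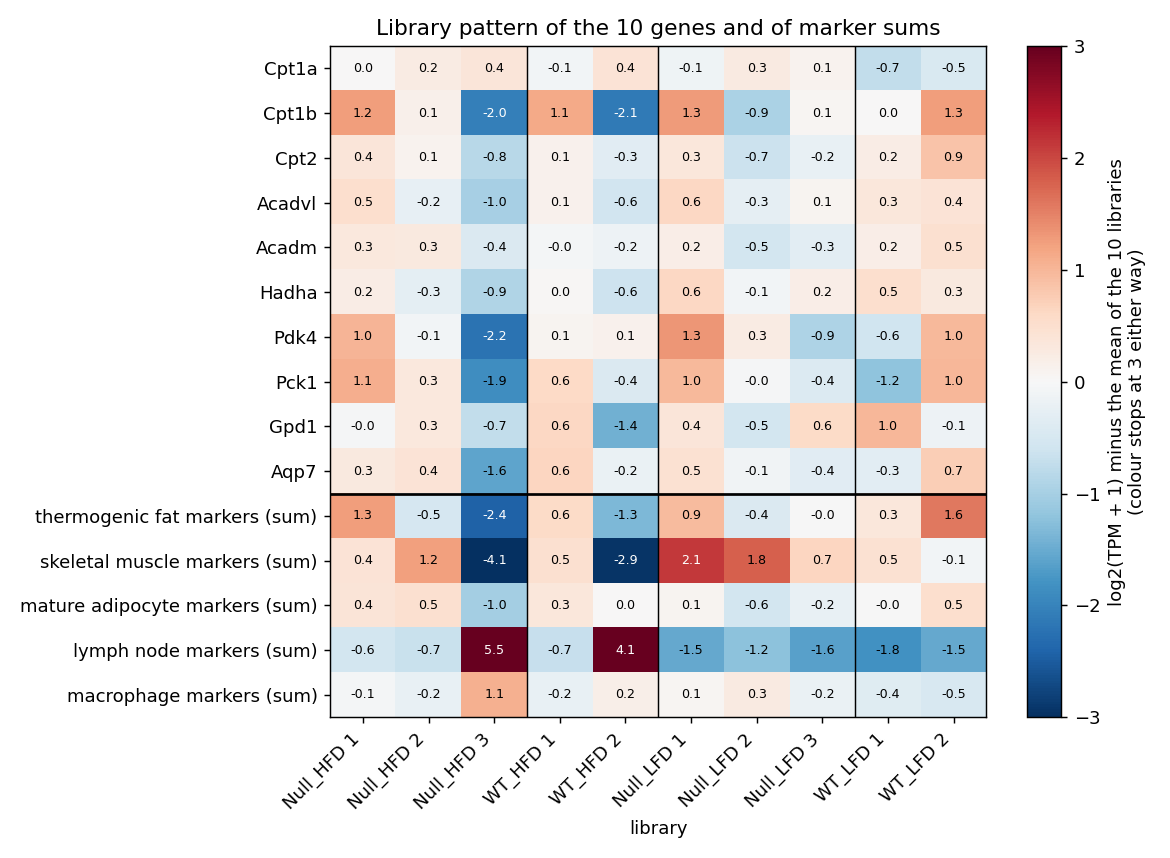
Level of each of the 10 genes and of 5 summed marker lists in each library, as log2(TPM + 1) minus the mean of the 10 libraries, with numbers in the cells and colour stopping at 3. Null_HFD 3 is low for every gene but Cpt1a, at -2.2 for Pdk4 and -2.0 for Cpt1b, and has the highest lymph node sum (5.5).

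The order of the libraries was alike for some of the genes. Null_HFD 3 was the lowest library for 6 of the 10 genes (Cpt2, Acadvl, Hadha, Pdk4, Pck1 and Aqp7) and second highest for Cpt1a. It also had the lowest adipocyte sum, 19174 TPM, against 26383 to 54909 TPM in the others. Markers in that sum differed: Adipoq was lowest there too (752 TPM, against 1398 to 3206 TPM). Plin1 was at 121 TPM, inside the 60.3 to 194 TPM of the others. WT_HFD 2, the other lymph node-rich library, was lowest for Cpt1b and Gpd1 but highest for Cpt1a. Over the 8 remaining libraries Cpt1a ran against Hadha (Pearson r = -0.706), Acadvl went with Hadha (0.878), Cpt2 with Acadm (0.930), Pck1 with Pdk4 (0.866) and Pck1 with Aqp7 (0.844). These coefficients describe 8 libraries of 4 groups whose TPM values share 1 fixed total per library, and no test was made of them.

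For each gene the 3 most similar genes were sought among the 11183 genes whose mean level reached 5 TPM, by the Pearson correlation of log2(TPM + 1) over the 10 libraries. Hadha came closest to Hadhb (0.977 over all 10 libraries and 0.931 over the 8 with few lymph node transcripts), and Acadvl to Hadhb (0.976 and 0.954) and Cidea (0.974 and 0.930). Apoo and Ddhd2 were nearly as close to Hadha over the 10 libraries (0.976 and 0.975). Over the 8 libraries Ddhd2 was closer to Hadha (0.964) and Cox4i1 closer to Acadvl (0.966) than Hadhb was. Cpt1b came closest to Nrg4 (0.961 and 0.884), Lman2l (0.955 and 0.928) and Phospho1 (0.945 and 0.838). Ephx2 and Kcnk2 were among the 3 closest both to Pck1 (0.956 and 0.934 over 10 libraries) and to Pdk4 (0.936 and 0.931). Cpt1a came closest to Rnf130 (0.965 and 0.975), Aqp7 to Thrb (0.971 and 0.919), Gpd1 to the glycogen synthase gene Gys2 (0.950 and 0.908), Cpt2 to Ccbl2 (0.969 and 0.953) and Acadm to Hyal1 (0.938 and 0.928). Over the 8 libraries Art3 was closer to Aqp7 (0.937) than Thrb was, and Arxes2 closer to Cpt2 (0.961) than Ccbl2 was. As the highest of many coefficients, all these values are descriptions.

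The wider pathways gave the same count of calls. Of 31 other fatty acid oxidation genes, 14 regulators, 12 genes of pyruvate dehydrogenase and pyruvate import, and 16 other genes of glyceroneogenesis and glycerol, all were tested and 0 passed in either direction in any of the 7 comparisons. The glycerol kinase gene Gk was read under its older symbol Gyk. Between the diets 22 of the 31 oxidation genes had a negative difference (median -0.22, against 0.11 over all genes tested). Without the lymph node-rich libraries 15 were negative and 16 positive (median 0.01, against 0.06 over all genes tested). Acaa1a had the smallest p for diet among the 31 and was higher on the high-fat diet. The difference was 0.44 (SE 0.13, limma adjusted p = 0.513). It measured 58.9 to 79.5 TPM in Null_HFD and 51.3 and 60.2 TPM in WT_HFD libraries. In Null_LFD it was at 44.1 to 47.4 TPM, and in WT_LFD at 46.0 and 40.6 TPM. The diets did not overlap, as held in this direction for 1.59% of genes tested. Acacb, whose product makes the malonyl-CoA that inhibits carnitine palmitoyltransferase 1, measured 8.40 to 42.5 TPM in Null_HFD, 44.2 and 54.1 TPM in WT_HFD, 34.3 to 62.6 TPM in Null_LFD, and 77.2 and 100 TPM in WT_LFD libraries. Its null minus wild-type difference was -1.04 (SE 0.41, limma adjusted p = 0.980), or -0.77 without the lymph node-rich libraries. The null libraries lay below the wild-type ones within each diet. That held for 7.78% of genes on the high-fat and for 6.3% on the low-fat diet. The share of genes for which it held in both diets was not counted, and Acacb had the smallest genotype p of the 31 genes.

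Of the 14 regulators 8 had a positive and 6 a negative diet difference (median 0.08, against 0.11 over all genes tested). Without the lymph node-rich libraries 10 were positive and 4 negative (median 0.21, against 0.06 over all genes tested). Foxo1, a transcription factor restrained by insulin, had the smallest p for diet among these regulators and was higher in every high-fat library. It measured 21.5, 16.7 and 23.5 TPM in Null_HFD, 19.5 and 26.7 TPM in WT_HFD, 12.0, 12.4 and 10.3 TPM in Null_LFD, and 13.7 and 14.3 TPM in WT_LFD libraries. The high-fat and low-fat libraries did not overlap, as held in this direction for 1.59% of genes tested. The difference was 0.72 (SE 0.16, limma adjusted p = 0.513), and 0.56 without the lymph node-rich libraries. The retinoid X receptor gene Rxra, whose product pairs with PPARs, differed by 0.51 (SE 0.17, adjusted p = 0.513).

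Of the 12 pyruvate genes 9 had a negative diet difference, with a median of -0.53, and 6 had an unadjusted p under 0.05, as did 9.69% of all genes tested. Without the lymph node-rich libraries 9 were negative (median -0.34) and 1 had such a p, as did 5.7% of all genes tested. Mpc1 and Mpc2, the subunits of the mitochondrial pyruvate carrier, differed by -1.29 (SE 0.42) and -1.17 (SE 0.38), both with an adjusted p of 0.513, and by -0.91 and -0.72 without the lymph node-rich libraries. Mpc1 measured 203 to 382 TPM in Null_HFD, 207 and 431 TPM in WT_HFD, 403 to 828 TPM in Null_LFD, and 411 and 1569 TPM in WT_LFD libraries, so that the diets overlapped only through WT_HFD 1. Of the 16 other glycerol genes 11 had a negative and 5 a positive diet difference (median -0.41). Without the lymph node-rich libraries 12 were negative and 4 positive (median -0.22). By genotype over both diets 10 were positive and 6 negative (median 0.13, against 0.08 over all genes tested). Among them Gpd2, the mitochondrial glycerol-3-phosphate dehydrogenase, differed by -1.05 (SE 0.34, limma adjusted p = 0.513) between the diets. Its value was -0.63 without the lymph node-rich libraries. Aqp9, a glycerol channel best known from liver, measured 1.10 to 3.63 TPM in Null_HFD, 0.416 and 1.16 TPM in WT_HFD, 2.94 to 5.64 TPM in Null_LFD, and 1.14 and 1.16 TPM in WT_LFD libraries, with a null minus wild-type difference of 0.95 (SE 0.30, limma adjusted p = 0.980), or 0.62 without the lymph node-rich libraries.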

How the data were processed

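Values were deposited by the authors as log2 of TPM plus a pseudocount of 1, per gene symbol and library; this unit was inferred from the values, since the lowest was 0 and back-transformed values summed to 946188 to 954515 TPM. The submitters' processing notes name kallisto, limma and the build GRCm38, without versions or the role of each tool. RNA was depleted of ribosomal RNA and libraries were stranded, per the labels' protocols. The 1 line without a symbol held at most 0.0108% of TPM and was left out.

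The 16932 genes that reached 1 TPM in 2 or more libraries were fitted with limma 3.58.1 in R 4.3.3 as 4 group means, with variances following mean expression and 6 residual degrees of freedom. Tests were two-sided, adjusted by Benjamini-Hochberg over all genes tested, with 0.05 as the limit for a call. Differences understate fold changes of low genes. Replicates are called biological by the series. The fit was tested on simulated data. Alternatives were other pseudocounts, filters, scaling, weights and variance models, a replicate block, and fits without libraries. The 10 genes and all lists were chosen with earlier results of these data known. Named genes of the wider lists are among the 3 with the smallest p per list for genotype or for diet. Exceptions are Pck2, Pdk1 and Pdk2, set beside Pck1 and Pdk4 as related genes, and Gk, named for its symbol. Positions are from GENCODE M21 (GRCm38).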

Additional observations from a re-analysis of the deposited data

How the results depend on the processing

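None of the 10 genes passed the test in any of the 7 comparisons under any alternative run. Directions were followed for 49 gene results. These were the 10 genes for genotype over both diets and diet over both genotypes, Cpt1a in the remaining comparisons, and the named genes of the wider lists. Of their 934 values under 20 alternatives, 877 kept their direction and 57 changed sign. The lowest limma adjusted p among all of them was 0.306. Without both lymph node-rich libraries the diet difference changed sign for Cpt1b (0.534), Cpt2 (0.00563), Acadm (0.0718), Pdk4 (0.0775), Pck1 (0.607), Gpd1 (0.0969) and Aqp7 (0.383), as did the genotype difference of Pdk4 (0.208). With sample weights the diet difference was 0.0210 for Acadm, 0.178 for Pck1 and 0.0589 for Aqp7, and the genotype difference was 0.145 for Cpt1b, 0.159 for Pdk4, 0.0185 for Gpd1 and, on the high-fat diet, -0.00815 for Cpt1a. Median-of-ratios scaling gave -0.0519 for the genotype difference of Pck1. Leaving out each library in turn moved the genotype difference over -0.926 to 0.706 for Cpt1b, -0.315 to 0.0610 for Acadvl, -0.257 to 0.0697 for Hadha, -0.646 to 0.197 for Pdk4, -0.521 to 0.571 for Pck1, -0.525 to 0.500 for Gpd1 and, on the high-fat diet, -0.207 to 0.291 for Cpt1a. It moved the diet difference over -1.55 to 0.0770 for Cpt1b, -0.159 to 0.0457 for Acadm, -0.754 to 0.0886 for Pdk4, -0.623 to 0.469 for Pck1 and -0.409 to 0.177 for Aqp7.

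Whether the replicate numbers pair the libraries could not be told. Over 13 pairs with the same number the correlation of deviations ran between -0.346 and 0.412, with 2 above 0.1. Yet 7 of 10 libraries correlated best with their own number. In groups of 2 libraries the deviations from the group mean are mirror images, so these coefficients cannot decide it. With a replicate block the genotype difference was 0.366 for Cpt1b, 0.0743 for Acadvl, 0.0596 for Hadha, 0.485 for Pdk4, 0.0251 for Gpd1, 0.0514 for Aqp7 and, on the high-fat diet, -0.00230 for Cpt1a, and 3 genes were called for diet in null mice. The genotype difference was then positive for 8 of the 10 genes (median 0.07), against 5 of 10 with sample weights (median 0.00188).

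Counts of called genes over the whole table were small under every setting. For genotype over both diets (0 called) they were 3 with a pseudocount of 0.1, 15 with no filter, 2 with sample weights, 5 with no variance trend, and 0 to 2 with 1 library left out. For genotype on the low-fat diet (0) they were 5, 2, 2 and 1 under the same settings, 1 with only the groups compared, and 0 to 1 with 1 library left out. For genotype on the high-fat diet (2) they were 1 with a pseudocount of 0.1 or of 5, 18 with no filter, 0 without both lymph node-rich libraries, 4 with only the groups compared, and 0 to 3 with 1 library left out. For diet over both genotypes (0) the count was 3 with no filter, and for diet in wild type (0) it was 5 with no filter and 2 with no variance trend, both with 0 to 2 when 1 library was left out. For diet in null mice (1) it was 0 with a pseudocount of 0.1 or 5, no filter or no variance trend, 2 without both lymph node-rich libraries or with sample weights, 3 with only the groups compared, and 0 to 2 with 1 library left out. The interaction (0) gave 3 with no filter and 0 to 2 with 1 library left out. The cause of these changes was not tested. Where a fit leaves a group with 1 library, that library is assumed to vary as the other groups do.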
